A study of Mus musculus with 8 samples.

Results

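Snai1, Snai2, Twist1, Twist2, Zeb1, Zeb2, Prrx1, Prrx2, Runx1 and Runx2 are 10 transcription factor genes of mesenchymal cells and fibroblasts, taken by gene symbol from the deposited table of 54532 genes. All 10 had 1 row each in the table, and all 10 passed the filter on low values that left 15708 genes for testing. The study kept cardiac fibroblasts under reprogramming factors either in the infarcted heart or in culture, and asked how the surroundings changed their transcriptome. The cells were MICFs, cardiac fibroblasts isolated from the hearts of C57BL/6 mice after myocardial infarction (MI). They carried doxycycline (Dox)-inducible lentiviruses for MGT (Mef2c, Gata4 and Tbx5 on 1 polycistronic construct), Myocd, Sall4 and eGFP, given in the labels as MGTMyoS overexpression. For the In vivo-1w and In vivo-2w groups, the cells were transplanted into the left ventricle of MI hearts, Dox was given in the drinking water, and the hosts received the immunosuppressants tacrolimus, methylprednisolone and mycophenolate mofetil. For the In vitro-1w and In vitro-2w groups, a portion of the same infected cells stayed in culture with Dox, in a medium that held SB431542, an inhibitor of TGF-β type I receptors, and baricitinib, a JAK inhibitor. The eGFP+ cells were sorted by FACS on days 7 and 14, and each of the 4 groups had 2 RNA-seq libraries. The heart and the hosts' drugs on one side, and the dish and the medium's inhibitors on the other, cannot be told apart. All groups carried the reprogramming factors, no group without them entered these comparisons, and the sources used here do not say which animals or wells made a library, so p-values measure the spread between these libraries.

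The SNAIL, ZEB and TWIST proteins are known as inducers of the epithelial-mesenchymal transition, the loss of epithelial junctions and keratins and the gain of a motile, matrix-producing state. SNAIL and ZEB factors are zinc-finger repressors that bind E-boxes, short DNA elements with the core CANNTG, in epithelial genes such as the one for E-cadherin, while TWIST proteins are bHLH factors that bind E-boxes as dimers with E-proteins. PRRX proteins are paired-related homeodomain factors of mesenchymal progenitors and fibroblasts, and RUNX proteins are Runt-domain factors that bind DNA with their partner CBFβ, RUNX1 being best known in blood cells and RUNX2 in bone-forming cells.

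The upstream sequences of members that were higher in vivo are shown here so that their own E-boxes and RUNX elements can be seen. RefSeq start sites (GRCm38.p6, the assembly that mm10 represents) were matched for 8 of the 10 members with 12 start sites, not for Snai2 and Zeb1, and the 250 bases before each start were searched on both strands for the SNAIL and ZEB E-box CAGGTG and for the RUNX element TGTGGT. Of 32851 promoter windows of that length in the table, 17.2% held the E-box and 14.0% the RUNX element. Among the members, the E-box was found once in the window of Snai1, where it began 126 bases before the start, and once in that of the upstream start of Runx1, 136 bases before it. The RUNX element was found in the window of Runx2 alone among the members, 80 bases before the RefSeq start. There it lay past the first annotated exon base of the window, so not upstream of the annotated gene. The other 9 windows, including those of Twist1 and the downstream Runx1 start, held neither. Among these, the windows of Twist2, Prrx2 and the downstream Zeb2 starts began within an annotated exon. The windows are printed 5′ to 3′ on the gene's strand as far as the first annotated exon base, with the E-box in capitals. They lie at chr2:167537945-167538194 (+ strand) for Snai1, chr12:33957421-33957670 (+ strand) for Twist1, chr16:92826150-92826324 (− strand) for the upstream Runx1 start and chr16:92697330-92697579 (− strand) for the downstream Runx1 start.
Snai1: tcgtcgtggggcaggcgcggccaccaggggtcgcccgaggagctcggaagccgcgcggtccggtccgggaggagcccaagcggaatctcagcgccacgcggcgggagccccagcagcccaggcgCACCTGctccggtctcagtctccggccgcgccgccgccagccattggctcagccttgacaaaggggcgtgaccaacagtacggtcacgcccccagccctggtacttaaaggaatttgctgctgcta
Twist1: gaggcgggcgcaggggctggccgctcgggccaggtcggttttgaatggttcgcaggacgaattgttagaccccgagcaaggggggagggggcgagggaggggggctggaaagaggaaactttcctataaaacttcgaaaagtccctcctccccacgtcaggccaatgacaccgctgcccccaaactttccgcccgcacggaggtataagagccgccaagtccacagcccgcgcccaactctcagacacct
Runx1 upstream start: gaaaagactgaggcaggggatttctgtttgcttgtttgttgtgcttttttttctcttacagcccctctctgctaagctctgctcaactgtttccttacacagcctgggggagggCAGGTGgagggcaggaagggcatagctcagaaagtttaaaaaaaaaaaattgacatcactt
Runx1 downstream start: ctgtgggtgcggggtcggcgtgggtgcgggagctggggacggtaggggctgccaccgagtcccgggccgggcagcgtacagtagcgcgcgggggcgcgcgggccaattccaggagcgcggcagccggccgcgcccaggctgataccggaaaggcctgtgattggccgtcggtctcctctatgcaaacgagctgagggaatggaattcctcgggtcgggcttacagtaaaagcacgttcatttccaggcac
The windows of Snai1 and of the downstream Runx1 start held 27 CpG dinucleotides each and that of Twist1 held 18, against a median of 6 over all windows, while that of the upstream Runx1 start held 2. Such matches describe the letters of the window and are not evidence of binding.

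Levels are given as FPKM, a read-out of fragments divided by gene length and by library size on which genes can be compared. Snai1 had the highest mean FPKM of the members in all 4 groups. At 1 week in vivo it was followed by Twist1, Runx1 and Prrx1, and no 2 of these neighbours overlapped between libraries, while Zeb1 and Zeb2 overlapped, as did Snai2 and Prrx2. At 1 week in vitro the order was Snai1, Prrx1, Twist1 and Zeb2, with each overlapping the next. At 2 weeks in vivo the order was Snai1, Twist1, Runx1, Zeb1, Prrx2 and Prrx1, the last 4 of which overlapped their neighbours. At 2 weeks in vitro, Snai1 and Twist1 again came first, and Prrx1 and Zeb2 overlapped behind them. Twist2 and Runx2 were the lowest members in every group. Among 934 tested genes with a transcription factor family in the table, ranked by mean FPKM over the 4 libraries of each side, Snai1 stood at rank 36 in vivo and 63 in vitro, Runx1 at 119 and 380, and Prrx2 at 188 and 519. Twist1 stood at rank 57 in vivo and 126 in vitro, Zeb1 at 159 and 286, and Runx2 at 491 and 676. Ranks of the other 4 members lay closer together, at 247 and 265 for Snai2, 207 and 158 for Zeb2, 166 and 134 for Prrx1, and 664 and 710 for Twist2.

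**Figure D1:**
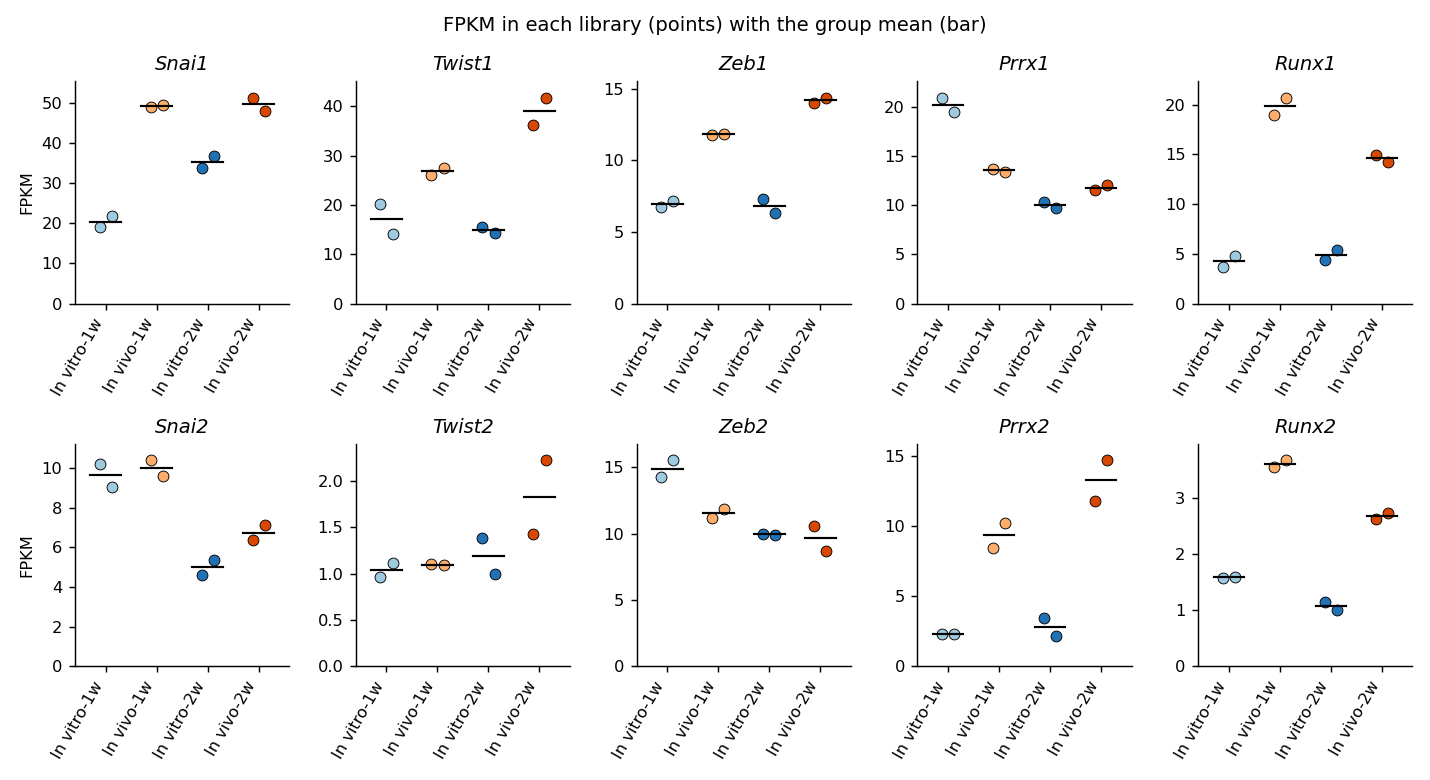
FPKM (linear axis from 0) of the 10 members in each of the 8 libraries, with points for libraries and a bar for the mean of each group. Runx1, Runx2, Prrx2, Zeb1, Snai1 and Twist1 lay higher in all 4 in vivo libraries than in any in vitro library, and Prrx1 and Zeb2 were highest in culture at 1 week. The share of all tested genes without such overlap was not counted.

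The first comparison asked which members differed between transplanted and cultured cells at each week. Fold changes are on the log2(FPKM + 0.1) scale, and a gene was called at an adjusted p under 0.01 (limma, Benjamini-Hochberg) with an absolute log2 fold change over 1. How many of all tested genes had no overlap between the sides was not counted, so statements of overlap describe single genes. The members were chosen with earlier results of these data known, so shares over all tested genes are given as background and do not test the set. At 1 week 4 of 10 members were called higher in vivo (Runx1, Prrx2, Snai1 and Runx2), against 7.79% of all tested genes. No member was called lower, against 5.07% of tested genes, although 2 members were lower at an unadjusted p under 0.05, and limma voom on recovered fragments also called 0. At 2 weeks 5 of 10 members were called higher (Prrx2, Runx1, Twist1, Runx2 and Zeb1), against 9.02% of tested genes, and none lower, against 8.05%, with 0 members lower at an unadjusted p under 0.05 and 0 by voom. The middle of the members' log2 differences, their median, was 0.71 at 1 week and 0.81 at 2 weeks, beside -0.01 and 0.00 over the whole set of tested genes. Among the 934 transcription factor genes tested, 8.57% were called higher and 4.07% lower at 1 week, and 10.4% and 5.25% at 2 weeks. Over both weeks together, Prrx2, Runx1, Runx2 and Twist1 were called higher, against 9.56% of tested genes, and no member was called lower, against 7.3%, with 2 lower at an unadjusted p under 0.05 and 0 by voom. The deposited values carry a scaling between libraries, and without it that set's median was -0.34 at 1 week and -0.33 at 2 weeks. On those values Snai1 (0.93) and Runx2 (0.81) fell under the fold limit at 1 week, as did Zeb1 (0.73) and Runx2 (0.93) at 2 weeks, so changes are relative to that scaling.

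**Figure D2:**
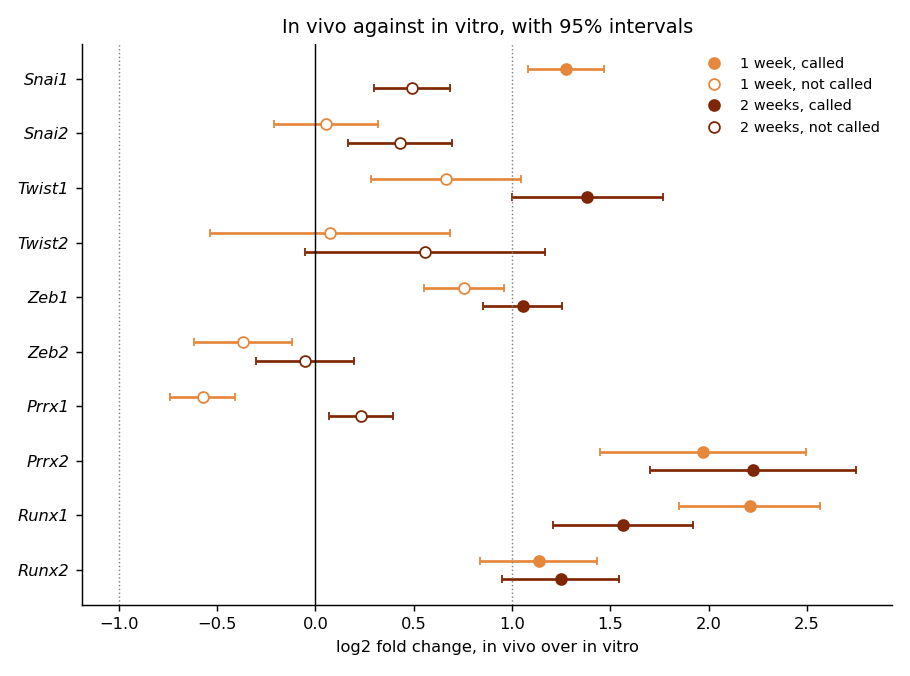
Log2 fold change of each member, in vivo over in vitro, at 1 week and 2 weeks, with 95% intervals from limma. Filled points passed both limits of the call and open points did not, and dotted lines mark log2 fold changes of -1 and 1. Prrx2 and Runx1 had the highest values at both weeks.

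Prrx2 showed the largest difference of the members at 2 weeks and Runx1 at 1 week, and gene spans are given in mm10 as in the table. Prrx2, at chr2:30834972-30881251 (+ strand), encodes a homeodomain factor of embryonic mesenchyme. Its FPKM was 8.45 and 10.3 at 1 week and 11.8 and 14.7 at 2 weeks in vivo, and 2.32 and 2.29 at 1 week and 3.47 and 2.17 at 2 weeks in vitro. Every in vivo library stood above every in vitro library. Prrx2 was 3.92-fold higher in vivo at 1 week (log2 1.97, SE 0.22, adjusted p = 0.00052) and 4.67-fold higher at 2 weeks (log2 2.22, SE 0.22, adjusted p = 0.00023). The values rest on 58 to 319 fragments a library. In a fit of the week 2 libraries alone its adjusted p was 0.010, at the limit of the call.

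Prrx1, at chr1:163245119-163313710 (− strand), encodes the paralog that marks fibroblasts of many organs. Its FPKM was 13.7 and 13.4 at 1 week and 11.5 and 12.02 at 2 weeks in vivo, and 20.9 and 19.5 at 1 week and 10.3 and 9.71 at 2 weeks in vitro. Both transplanted libraries lay under the cultured ones at 1 week and above them at 2 weeks. The log2 difference was -0.57 at 1 week (95% interval -0.74 to -0.41, adjusted p = 0.00073) and 0.23 at 2 weeks (0.07 to 0.40, adjusted p = 0.029), neither of which passed the fold limit. Without the scaling between libraries the 2-week value turned to -0.10 (adjusted p = 0.35), so that its direction rested on that scaling. Within a library, where the scaling cancels, Prrx2 made 38.1% to 55.1% of the summed FPKM of the pair in vivo and 9.97% to 25.2% in vitro, with no overlap. The ratio of Prrx1 to Prrx2 was 1.62 and 1.30 at 1 week and 0.971 and 0.816 at 2 weeks in vivo, and 9.03 and 8.50 at 1 week and 2.97 and 4.46 at 2 weeks in vitro.

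Runx1, at chr16:92601466-92826149 (− strand), had 18.9 and 20.7 FPKM at 1 week and 15.0 and 14.3 at 2 weeks in vivo. In vitro it had 3.67 and 4.82 at 1 week and 4.38 and 5.43 at 2 weeks. All 4 transplanted libraries stood apart from the 4 cultured ones. Runx1 was 4.62-fold higher in vivo at 1 week (log2 2.21, SE 0.15, adjusted p = 5.5e-05) and 2.96-fold higher at 2 weeks (log2 1.56, SE 0.15, adjusted p = 0.0002). The difference between the weeks, -0.64 (95% interval -1.15 to -0.14), had an adjusted p of 0.11. Gm26626, an antisense gene that shares 106 exon bases with Runx1, had 0.0816 to 2.23 FPKM and was also higher in vivo, with a log2 fold change of 2.23 at 1 week (adjusted p = 0.01, not called) and 3.27 at 2 weeks (adjusted p = 0.0016). Strand was not stated for the counting, so the 2 genes' reads over the shared bases cannot be told apart, although Runx1 collected 680 to 3245 fragments a library.

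Runx2, at chr17:44495987-44814797 (− strand), the master regulator of bone-forming cells, was lower in level but differed in the same direction. Its FPKM was 3.55 and 3.67 at 1 week and 2.63 and 2.73 at 2 weeks in vivo, and 1.58 and 1.60 at 1 week and 1.15 and 1.00 at 2 weeks in vitro. The in vivo libraries lay above the in vitro ones at both weeks. Runx2 was 2.20-fold higher at 1 week (log2 1.13, SE 0.13, adjusted p = 0.00049) and 2.37-fold higher at 2 weeks (log2 1.25, SE 0.13, adjusted p = 0.00025). With a pseudocount of 1 the log2 values were 0.83 at both weeks and under the fold limit, and in the week 2 libraries alone the adjusted p was 0.010. The ratio of Runx1 to Runx2 was 5.24 to 5.69 in vivo and 2.32 to 5.44 in vitro, ranges that overlapped. Runx2os1, an antisense gene that shares 519 exon bases with Runx2, had 0.0820 to 0.647 FPKM and was not called at either week.

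Snai1, at chr2:167538195-167542814 (+ strand), encodes the SNAIL repressor. Its FPKM in vivo was 49.2 and 49.7 at 1 week and 51.4 and 48.1 at 2 weeks, and in vitro 19.1 and 21.7 at 1 week and 33.9 and 36.8 at 2 weeks. Transplanted libraries held 1 level, and the cultured ones stood below it at both weeks. Snai1 was 2.42-fold higher in vivo at 1 week (log2 1.28, SE 0.08, adjusted p = 4e-05). At 2 weeks the log2 difference was 0.49 (95% interval 0.30 to 0.68, adjusted p = 0.0024), under the fold limit.

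Snai2, at chr16:14705852-14709385 (+ strand), encodes SLUG, a close relative of SNAIL. Its FPKM was 10.4 and 9.61 in vivo against 10.2 and 9.04 in vitro at 1 week, and 6.36 and 7.12 against 4.61 and 5.35 at 2 weeks. The groups overlapped at 1 week and did not overlap at 2 weeks. The log2 difference was 0.06 at 1 week (95% interval -0.21 to 0.32, adjusted p = 0.72) and 0.43 at 2 weeks (0.17 to 0.69, adjusted p = 0.017), and neither was called. Without the scaling the 1-week value was -0.28. The ratio of Snai1 to Snai2 was 4.73 and 5.17 in vivo against 1.87 and 2.40 in vitro at 1 week, and 8.09 and 6.75 against 7.35 and 6.89 at 2 weeks, so that only the first week separated the sides. Snai3, the remaining SNAIL relative, had 0 to 0.271 FPKM and was not tested.

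Twist1, at chr12:33957671-33959829 (+ strand), had 26.2 and 27.5 FPKM at 1 week and 36.3 and 41.8 at 2 weeks in vivo. In vitro it had 20.2 and 14.1 at 1 week and 15.5 and 14.3 at 2 weeks. All in vivo libraries lay above all in vitro libraries, and the cultured libraries of 1 week differed most from each other. Twist1 was 2.61-fold higher in vivo at 2 weeks (log2 1.38, SE 0.16, adjusted p = 0.00048), while the log2 difference at 1 week was 0.66 (95% interval 0.28 to 1.05, adjusted p = 0.015) and was not called. The difference between the weeks, 0.72, had an adjusted p of 0.098. Over both weeks the log2 difference was 1.02, and it fell under the fold limit without In vitro-1w replicate 2 (0.89), In vitro-2w replicate 2 (0.996) or In vivo-2w replicate 2 (0.97), with a pseudocount of 1 (0.98) and without the scaling between libraries (0.69). Twist2, at chr1:91801461-91848028 (+ strand), had 41 to 78 fragments a library. Its FPKM was 1.10 and 1.09 in vivo against 0.962 and 1.12 in vitro at 1 week, and 1.42 and 2.23 against 1.39 and 1.00 at 2 weeks. The log2 difference was 0.07 at 1 week (95% interval -0.54 to 0.68) and 0.56 at 2 weeks (-0.05 to 1.17), with adjusted p of 0.85 and 0.11, so a change of about the fold limit at 2 weeks lay within the interval, and without the scaling the 1-week value was -0.24.

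Zeb1, at chr18:5591860-5775467 (+ strand), and Zeb2, at chr2:44983632-45117395 (− strand), encode zinc-finger and homeodomain repressors. The FPKM of Zeb1 was 11.8 and 11.9 at 1 week and 14.0 and 14.4 at 2 weeks in vivo, and 6.75 and 7.17 at 1 week and 7.29 and 6.34 at 2 weeks in vitro. Transplanted and cultured libraries were apart at both weeks. Zeb1 was 2.08-fold higher in vivo at 2 weeks (log2 1.05, SE 0.08, adjusted p = 8.9e-05). At 1 week the log2 difference was 0.76 (95% interval 0.55 to 0.96, adjusted p = 0.00053), under the fold limit, and at 2 weeks it was 0.95 without In vitro-2w replicate 2 and 0.96 with a pseudocount of 1. Zeb2 had 11.2 and 11.8 FPKM at 1 week and 10.6 and 8.67 at 2 weeks in vivo, and 14.3 and 15.5 at 1 week and 9.97 and 9.90 at 2 weeks in vitro. Cultured cells had more Zeb2 at 1 week, and the groups overlapped at 2 weeks. The log2 difference was -0.37 at 1 week (95% interval -0.62 to -0.12, adjusted p = 0.028) and -0.05 at 2 weeks (-0.30 to 0.20, adjusted p = 0.71). The ratio of Zeb1 to Zeb2 within a library was 1.05 and 1.00 at 1 week and 1.33 and 1.66 at 2 weeks in vivo, and 0.474 and 0.462 at 1 week and 0.731 and 0.640 at 2 weeks in vitro. These ratios did not overlap between transplanted and cultured cells, while the summed FPKM of the pair was 22.9 to 24.6 in vivo and 16.2 to 22.7 in vitro. Zeb2os, an antisense gene with 653 exon bases in common with Zeb2, had 0.455 to 1.998 FPKM and a log2 difference of -1.33 at 2 weeks (adjusted p = 0.015, not called). Gm10125 shares 198 exon bases with Zeb1 and Gm29100 shares 1477 with Twist2, and neither passed the filter, at up to 0.344 and 0.141 FPKM.

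**Figure D3:**
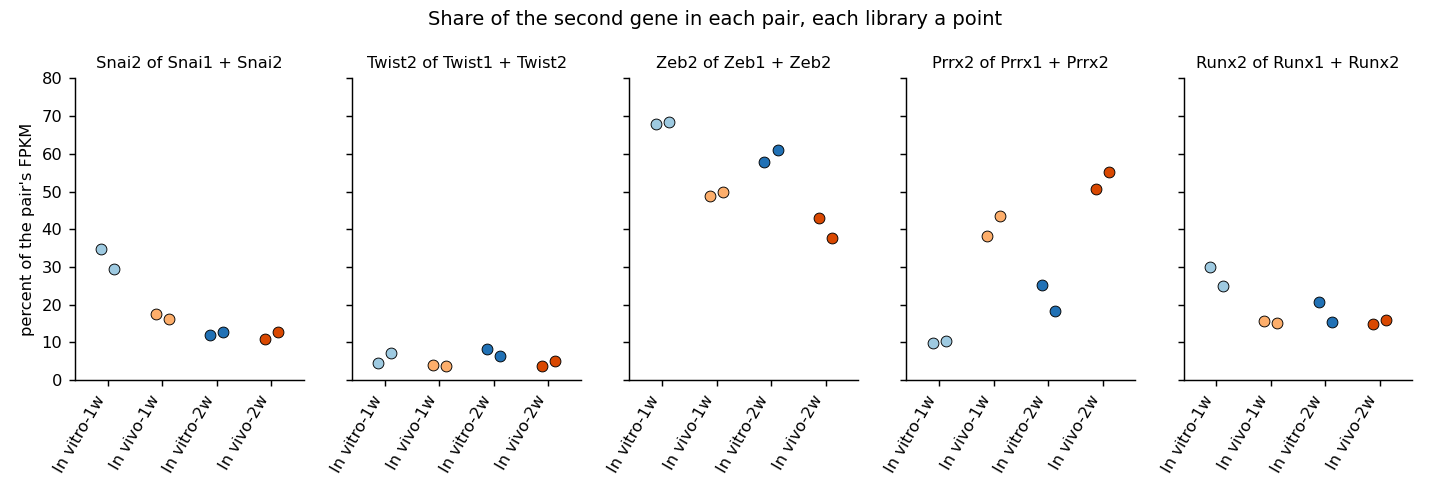
Percent of each pair's summed FPKM that came from its second gene (Snai2, Twist2, Zeb2, Prrx2 and Runx2), in each library. The share of Prrx2 was 38.1% to 55.1% in vivo and 9.97% to 25.2% in vitro, and Zeb2 was likewise without overlap, while the shares of the other 3 pairs overlapped between the sides.

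The sorted cells held RNA of genes that mark several cell types. In bulk RNA, fewer cells of a type, less RNA per cell and expression of its markers by the fibroblasts themselves cannot be told apart. The fibroblast list was present in all libraries, with a summed FPKM of 10193 to 13277 in vivo and 2135 to 3256 in vitro. It had 6 of 10 genes called higher at each week, among them Col1a1, Col1a2, Lum and Postn, and none called lower. Over all tested genes, 7.79% were called higher and 5.07% lower at 1 week, and 9.02% and 8.05% at 2 weeks. At an unadjusted p under 0.05, 2 of the 10 fibroblast genes were lower in vivo at 1 week and 1 at 2 weeks. Thy1 was at 24.2 and 22.7 FPKM in vivo against 42.2 and 36.7 in vitro at 1 week, Ddr2 was at 21.8 and 22.8 against 33.8 and 34.7, and Pdgfra was at 20.1 to 27.8 in vivo and 19.8 to 24.4 in vitro over both weeks. All 15 macrophage markers were above 0 in every library, and their sum was 2140 to 3419 in vivo and 5287 to 6485 in vitro. At 1 week 2 of them were called higher in vivo and 1 lower, and at 2 weeks 1 was higher and 8 were lower. Lyz2 had the largest values in that sum, at 975 to 1453 FPKM in vivo and 2921 to 4014 in vitro. Fcgr1 went the other way, at 7.66 to 21.7 in vivo and 2.56 to 5.34 in vitro. By staining, the paper found its isolated MICFs to be mostly fibroblasts, with macrophages and a few endothelial cells among them. Macrophages are known to express Runx1 and Zeb2, and their part in the values of these genes was not tested. Endothelial markers summed to 82.6 to 104 in vivo and 24.6 to 62.5 in vitro, with 8 of 9 called higher at 1 week and 4 of 9 at 2 weeks, and mural markers to 99.5 to 150 and 81.9 to 104. The 5 mesothelial markers summed to 9.68 to 25.5 in vivo and 230 to 459 in vitro and were all called lower at both weeks, and the cardiomyocyte list summed to 9.86 to 23.1 and 105 to 625. Of 8 tested cardiomyocyte genes, 1 was called higher and 5 lower at 1 week, and 2 and 6 at 2 weeks. Pln went against that sum, at 0.526 to 3.31 FPKM in vivo and 0.0235 to 0.105 in vitro, as did Myl2 (0.131 to 0.789 and 0.0333 to 0.0742). Lymphocyte markers summed to at most 2.003 in any library, with Cd3d listed at 0 in all in vitro libraries. The mast cell sum was 1.45 to 6.75 in vivo and 61.5 to 146 in vitro, nearly all of it Mcpt4, and glial markers summed to 2.81 to 7.56 and 1.14 to 1.62. The part of these cell types in the members' differences was not tested.

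The second comparison was that of time. In vitro, 1 member was called between the weeks, Prrx1, which was 2.01-fold lower at 2 weeks than at 1 week (log2 -1.01, SE 0.07, adjusted p = 0.00037), against 1.05% of tested genes called lower and 2.76% called higher. The call lay at the fold limit, with log2 values of -0.95 without In vitro-1w replicate 1, -0.96 without In vitro-2w replicate 2 and -0.95 with a pseudocount of 1. Snai2 (-0.94, adjusted p = 0.0022) and Zeb2 (-0.58, adjusted p = 0.0097) had negative and Snai1 (0.79, adjusted p = 0.0013) positive log2 differences in culture that passed the p limit and not the fold limit. No member was called higher in culture, where 1 had an unadjusted p under 0.05 and voom called 0. In vivo no member was called in either direction, against 1.23% of tested genes higher and 0.949% lower, and voom also called 0. At an unadjusted p under 0.05, 3 members were higher and 5 lower at 2 weeks in vivo. Snai1 was within 0.01 of its 1-week level on the log2 scale in vivo (95% interval -0.18 to 0.20), and Snai2 had the lowest in vivo value (-0.56, adjusted p = 0.019).

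The third comparison asked whether the in vivo against in vitro difference itself differed between the weeks. No member passed both limits, against 0.573% of tested genes with a larger and 1.15% with a smaller value at 2 weeks, while 4 members were larger and 2 smaller at an unadjusted p under 0.05 and voom called 0. Prrx1 passed the p limit with a difference of 0.81 (95% interval 0.57 to 1.04, adjusted p = 0.0063), which rested on the fall in culture. For Snai1 the difference was -0.78 (-1.06 to -0.51, adjusted p = 0.010), from a gain in culture at an even level in vivo. Zeb1, Zeb2, Prrx2, Runx2, Twist2 and Snai2 had differences of 0.11 to 0.49 with adjusted p of 0.17 or more.

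**Figure D4:**
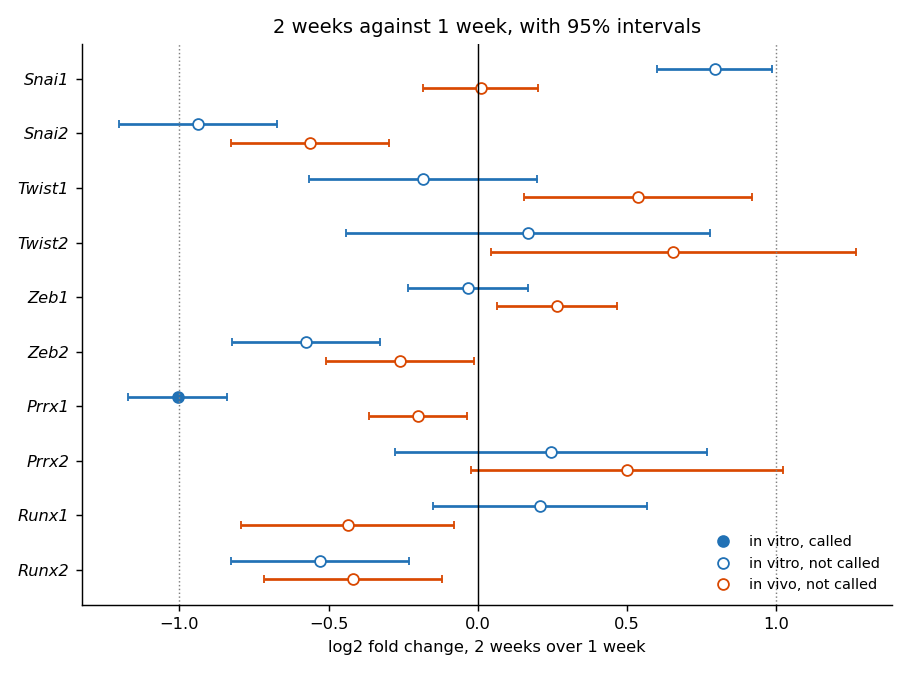
Log2 fold change of each member from 1 week to 2 weeks, in vitro and in vivo, with 95% intervals from limma. Prrx1 in vitro is the 1 filled point, at -1.01, and dotted lines mark log2 fold changes of -1 and 1.

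The partners of the members were read from lists of pathway genes. Of 7 E-protein and Id genes, which are the dimer partners and the inhibitors of bHLH factors such as TWIST, 1 was called lower in vivo at each week and none higher, with 2 and 4 higher at an unadjusted p under 0.05 and 0 by voom. That gene was Id4, at 1.93 and 1.68 FPKM at 1 week and 3.31 and 4.33 at 2 weeks in vivo against 14.7 and 14.0, and 18.7 and 19.0, in vitro. The 4 in vivo libraries of Id4 stood well under the in vitro ones, with log2 fold changes of -2.93 at 1 week (adjusted p = 9.9e-06) and -2.29 at 2 weeks (adjusted p = 2.2e-05). Over all tested genes, 5.07% were called lower at 1 week and 8.05% at 2 weeks, and 7.79% and 9.02% higher. The E-protein genes Tcf3 (0.21 and 0.22), Tcf4 (0.40 and 0.47) and Tcf12 (0.16 and 0.43), and Id1 (-0.16 and 0.27), Id2 (-0.07 and -0.67) and Id3 (-0.34 and -0.51), had log2 differences under the fold limit at 1 and 2 weeks. Without the scaling the 1-week values of Tcf3 and Tcf12 and the 2-week values of Tcf3 and Id1 turned negative. Over time, the calls were Id2 in vitro (log2 1.05, adjusted p = 0.00083), and Id1 (1.11, adjusted p = 0.0012) and Id4 (1.03, adjusted p = 0.0047) in vivo, all higher at 2 weeks. Under the fold limit, Id1 also rose in vitro (0.68, adjusted p = 0.0038) and Id2 in vivo (0.45, adjusted p = 0.022). Id3 rose in vitro (0.87, adjusted p = 0.00068) and in vivo (0.69, adjusted p = 0.0023), also under that limit. The rises were thus not confined to the side of the call. None of 21 genes for corepressors and stability factors of SNAIL, ZEB and TWIST, such as Ctbp1, Hdac1, Kdm1a and Gsk3b, was called at either week or over time, by limma or by voom. At an unadjusted p under 0.05, 1-week values were higher for 4 and lower for 5 of them, and 2-week values were higher for 8 and lower for 4. From 1 week to 2 weeks, 2.76% of all tested genes were called higher and 1.05% lower in vitro, and 1.23% and 0.949% in vivo.

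Of 16 RUNX partners, corepressors and relatives, 13 were tested and 2 were called higher at each week, none lower, with 1 and 2 lower at an unadjusted p under 0.05 and 0 by voom. The share called higher over all tested genes was 7.79% at 1 week and 9.02% at 2 weeks, and that called lower 5.07% and 8.05%. Runx3, the Runt factor best known in lymphocytes and neurons, had 2.34 and 1.75 FPKM at 1 week and 1.49 and 1.09 at 2 weeks in vivo, and 0.195 and 0.335 at 1 week and 0.101 and 0.147 at 2 weeks in vitro. All 4 in vivo libraries lay above the in vitro ones, at 7 to 137 fragments a library. The log2 fold change of Runx3 was 2.57 at 1 week (adjusted p = 0.00091) and 2.62 at 2 weeks (adjusted p = 0.00066). Without In vivo-1w replicate 1 the adjusted p at 1 week was 0.011. The other called genes, named after their values were seen, were the corepressor gene Cbfa2t3 at 1 week (1.16, adjusted p = 0.0037) and the ubiquitin ligase gene Smurf2 at 2 weeks (1.07, adjusted p = 6.1e-05). Cbfb, which encodes the common partner of all RUNX proteins, had 31.3 and 31.0 FPKM in vivo against 21.4 and 22.1 in vitro at 1 week, and 26.0 and 27.4 against 17.5 and 17.9 at 2 weeks. The sides did not overlap, and the log2 differences of 0.52 (adjusted p = 0.00048) and 0.59 (adjusted p = 0.0002) stayed under the fold limit.

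Of 22 epithelial genes that SNAIL, TWIST and ZEB factors are known to repress, 8 passed the filter, 4 were called lower in vivo at 1 week and 5 at 2 weeks, and none higher, with 1 and 0 higher at an unadjusted p under 0.05 and 1 and 0 called higher by voom. The genes called lower were Krt8, Krt18, Krt19 and Dsp at both weeks and Cldn3 at 2 weeks. Over all tested genes, 5.07% were called lower at 1 week and 8.05% at 2 weeks, and 7.79% and 9.02% higher. Krt18, a keratin of simple epithelia, had 2.67 and 3.26 FPKM at 1 week and 2.90 and 2.96 at 2 weeks in vivo, and 20.8 and 17.4 at 1 week and 69.4 and 71.0 at 2 weeks in vitro. Cultured cells had more Krt18 at both weeks, with log2 differences of -2.65 (adjusted p = 9.1e-06) and -4.54 (adjusted p = 9.4e-07). For its partner keratin Krt8 they were -1.89 and -2.98, and for Krt19 -1.65 and -2.44. Keratins and Wt1 are also expressed by mesothelial cells, whose 5 markers were all lower in vivo (sum 9.68 to 25.5 against 230 to 459 FPKM), and the part of that cell type in these differences was not tested.

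Of 23 mesenchymal genes of the transition, 10 were called higher in vivo at 1 week and 9 at 2 weeks, and 2 were called lower at each week. Over all tested genes the shares were 7.79% and 9.02% higher, and 5.07% and 8.05% lower. Postn, a matricellular protein of activated fibroblasts, had log2 fold changes of 3.46 and 3.56, the collagen crosslinking enzyme Lox 2.74 and 3.76, and tenascin C (Tnc) 3.14 and 2.60. Vim had a log2 fold change of 1.46 at 2 weeks (adjusted p = 9.6e-06). S100a4 was called lower at both weeks, with 0.465 to 1.90 FPKM in vivo against 4.58 to 9.01 in vitro, and a log2 difference of -2.51 at 1 week (adjusted p = 0.0074) and -3.12 at 2 weeks (adjusted p = 0.0023). S100a4 had only 3 to 81 fragments a library. Its 1-week call was lost when any library but In vivo-1w replicate 1 was left out, with adjusted p of 0.013 to 0.055, and its 2-week call without In vitro-2w replicate 2 (adjusted p = 0.020) or In vivo-2w replicate 2 (adjusted p = 0.017). The other genes called lower, named after their values were seen, were Mmp3 at 1 week (-1.61) and Wnt5a at 2 weeks (-1.33).

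Of 18 genes that RUNX2 is known to drive in bone or that accompany it, 5 passed the filter, 2 were called lower at each week and none higher, with 0 higher at an unadjusted p under 0.05 at either week and 0 by voom. Over all tested genes, 5.07% were called lower at 1 week and 8.05% at 2 weeks, and 7.79% and 9.02% higher. Mmp13, a collagenase, had 0.927 and 1.18 FPKM at 1 week and 0.762 and 0.373 at 2 weeks in vivo, and 3.38 and 5.01 at 1 week and 5.68 and 9.19 at 2 weeks in vitro. These values rest on 11 to 334 fragments a library. Mmp13 was thus lower in the libraries where Runx2 was higher, with log2 differences of -1.88 (adjusted p = 0.0058) and -3.52 (adjusted p = 0.00027). The 1-week call of Mmp13 was lost when any 1 of its 4 libraries was left out, with adjusted p of 0.018 to 0.046. The others called, named after their values were seen, were Col10a1 at 1 week (-1.91, adjusted p = 0.0056) and Spp1, which macrophages also express, at 2 weeks (-2.27, adjusted p = 8e-05). The paper names Spp1 among the fibroblast-related genes that were higher in its in vivo samples, the opposite direction to this 2-week value. The other 13 genes, among them Sp7, Ibsp and Bglap, did not pass the filter.

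Of 48 other transcription factor genes of mesenchyme and fibroblasts, 45 were tested, 8 were called higher in vivo at 1 week and 10 at 2 weeks, and 2 were called lower at each week. Over all tested genes the shares were 7.79% and 9.02% higher, and 5.07% and 8.05% lower. Meox1, a homeobox factor known from activated cardiac fibroblasts, had 114 and 121 FPKM at 1 week and 158 and 180 at 2 weeks in vivo, and 0.408 and 0.691 at 1 week and 1.65 and 1.58 at 2 weeks in vitro. The groups were far apart at either week, and the log2 fold changes were 7.53 (adjusted p = 1e-06) and 6.62 (adjusted p = 1.2e-06), beyond those of any of the 10 members. Scx, the tendon factor scleraxis, had 11.5 and 15.8 FPKM at 1 week and 29.4 and 25.9 at 2 weeks in vivo against 0.291 and 0.334, and 1.04 and 1.21, in vitro. Its log2 fold changes were 5.04 and 4.50, on 9 to 666 fragments a library. Meox2 followed with 2.89 and 3.27. Wt1, a factor of the epicardium and mesothelium, was lower in vivo by log2 differences of -1.94 and -2.42, and Foxf1 by -1.37 and -2.17. In culture Meox1 (1.44, adjusted p = 0.0032) and Scx (1.57, adjusted p = 0.0016) passed both limits from 1 week to 2 weeks by limma on FPKM, while voom called neither, with adjusted p of 0.011 and 0.036.

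**Figure D5:**
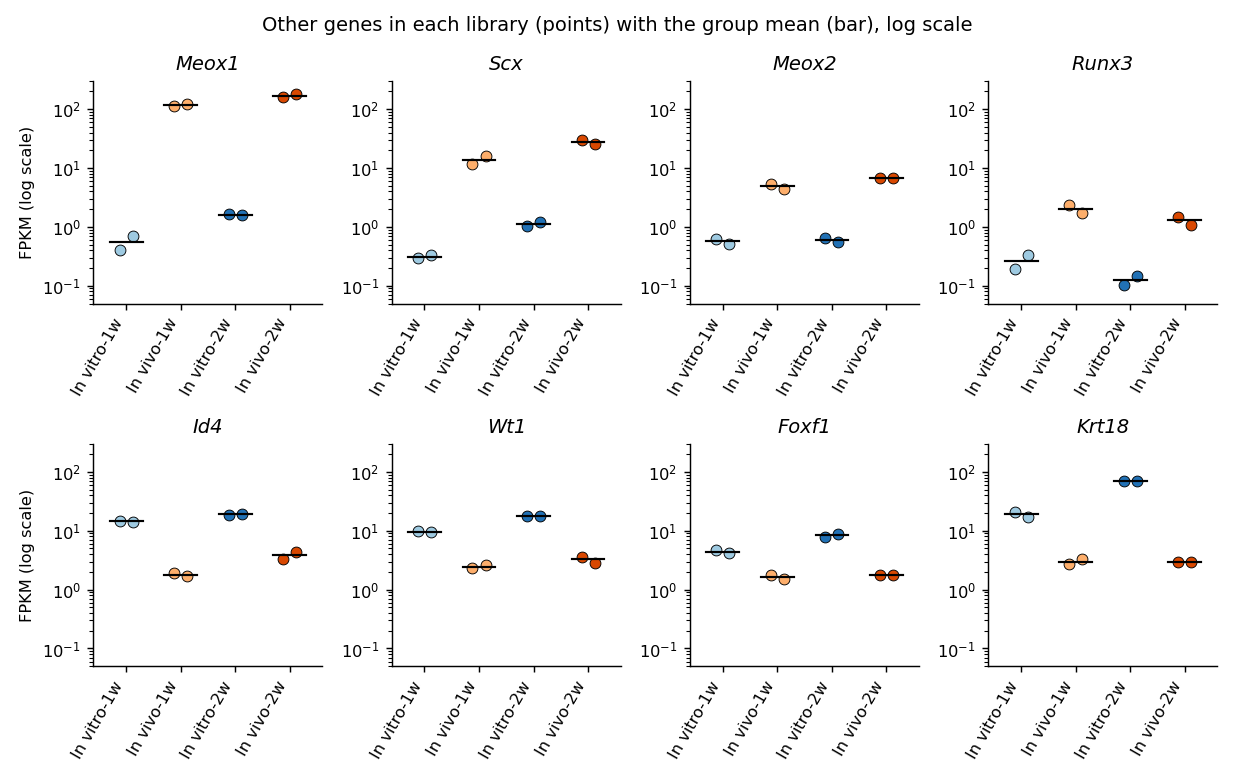
FPKM on a log axis for Meox1, Scx, Meox2, Runx3, Id4, Wt1, Foxf1 and Krt18 in each library, with a bar for the group mean. The first 4 genes were higher in all in vivo libraries, with Meox1 at 114 to 180 FPKM against 0.408 to 1.65, and the last 4 were higher in all in vitro libraries.

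The genes whose profile over the 8 libraries was nearest to each member were taken as a description, by the root mean square difference of centred log2 values with 7109 protein-coding genes averaging 5 FPKM or more as candidates. Nearest to Snai1 were Slfn5 (0.07) and Vasn (0.08), to Runx2 Ckap4 (0.07) and the fibroblast activation gene Fap (0.10), and to Zeb1 Neurl4 (0.07) and Castor2 (0.08). Runx1 was nearest to the cytokine receptor genes Il13ra1 (0.13) and Osmr (0.16), and Prrx2 to Ltbp3 (0.18), which encodes a latent TGF-β binding protein, and Syt11 (0.19). Nearest to Prrx1 were Fads3 (0.11) and Dcbld2 (0.12), to Zeb2 Ubap2 and Dtx4 (0.06 each), to Snai2 Gdf6 (0.09) and Ripk3 (0.12), to Twist1 Ybx3 and Dynll1 (0.15 each), and to Twist2 Mepce (0.09) and Cdk2ap2 (0.16). Among the members themselves the closest pairs were Zeb2 with Prrx1 (0.19) and Twist1 with Zeb1 (0.20). No paralog pair was closest to each other, and 8 libraries in 4 groups leave room for many like profiles.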

How the data were processed

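The authors had the libraries made with a SMARTer mRNA kit and sequenced, and deposited 1 table of FPKM values for 54532 genes in 8 libraries. Their processing notes name HISAT2 2.0.5, CASAVA and mm10, while the counter, its strand setting and the scaling are not given in the sources used here. In every library all values came out as whole fragments (tolerance 0.01), and 12304242 to 14546904 fragments lay on genes. The library sizes behind the FPKM were 0.863 to 0.915 times those totals in vivo and 1.09 to 1.15 times in vitro, so a scaling between libraries had been applied. The precision of a value is limited by its fragments. Intervals rest on 1 estimate of the spread for each gene, shared by all 4 groups of 2 libraries, not on the compared groups alone.

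Genes that reached an FPKM of 0.5 in 2 or more libraries entered the tests, on log2(FPKM + 0.1) with limma 3.58.1 in R 4.3.3 (a linear model of 4 group means with moderated variances and an intensity trend), with Benjamini-Hochberg adjustment over all 15708 genes. The study's own count test needs counts, so limma voom on the recovered fragments was an alternative. The script was tested on simulated data. Replicate numbers were not treated as pairs. Alternatives were another pseudocount, filter, scaling, gene set or variance model, each week alone, and each library left out. Named were all 10 members, up to 3 genes a list and direction called at both weeks, fixed partners, overlapping genes and 2 profile neighbours a member. The members and lists were chosen with earlier results of these data known. All 10 members had the same start and end in GENCODE vM21.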

Additional observations from a re-analysis of the deposited data

Results flagged for a closer look

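Prrx1, Krt18 and Lox were singled out because their in vivo against in vitro difference itself differed between the weeks by the limma test of that difference. For Prrx1 the log2 difference was -0.57 at 1 week and 0.23 at 2 weeks, a change of 0.81 (adjusted p = 0.0063). Without the scaling between libraries the 2-week value was -0.10 (adjusted p = 0.35), so the opposite sign at 2 weeks rested on the deposited scaling. For the keratin gene Krt18 it was -2.65 and -4.54, a change of -1.89 (adjusted p = 0.0034), with more Krt18 in culture at 2 weeks and an even level in vivo. For the crosslinking enzyme gene Lox it was 2.74 and 3.76, a change of 1.02 (adjusted p = 0.008), with less Lox in culture at 2 weeks. The change of Lox lay at the fold limit. Krt18 and Lox were not followed under the alternatives for this difference, whose count of called genes moved under many of them. Groups of 2 libraries were too small for a check of single outlying libraries.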

How the results depend on the processing

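Alternatives were read for the members in all comparisons. For the fixed partners and up to 3 genes a list and direction, they were read in vivo against in vitro at each week. Other list genes were not followed. No called value of the followed genes changed direction under the alternatives run. Of their values that were not called, 16 turned sign under at least 1 alternative, 9 of them without the scaling between libraries, among these Prrx1 at 2 weeks (-0.10), Snai2 at 1 week (-0.28) and over both weeks (-0.09) and Twist2 at 1 week (-0.24). Of 4, 5, 4, 0, 1 and 0 members called (1 week, 2 weeks, both weeks, difference between the weeks, time in vitro and time in vivo), an adjusted p under 0.05 with no fold threshold gave 8, 8, 9, 2, 5 and 1, and for all genes 6605, 7825, 9105, 1558, 3942 and 2476 in place of 2020, 2682, 2648, 271, 599 and 342. Without the scaling between libraries 2, 3 and 2 members were called at 1 week, 2 weeks and over both weeks, and the share of called genes that were higher fell from 60.6% to 36.7%, from 52.8% to 32.9% and from 56.7% to 35.3%. A pseudocount of 1 gave 3 members at 2 weeks, 2 over both weeks and 0 for time in vitro, and 1586 genes over both weeks. The week 2 libraries alone gave 3 members at 2 weeks. The count of 271 genes for the difference between the weeks was 473 with voom, 72 with no filter, 71 with no trend and 463 over protein-coding genes. The cause was not tested. With each library left out in turn, the counts ranged from 2 to 86 genes for that difference, 198 to 555 for time in vitro, and 11 (without In vivo-1w replicate 1) to 221 for time in vivo, and from 0 to 1 member for time in vitro.

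Over all tested genes, the deviations of equally numbered libraries correlated at -0.02 at both weeks. With 2 libraries a group this value cannot exclude that replicate numbers pair the libraries. With the replicate block 27 genes were called for the difference between the weeks, and the member counts did not move. Among single members and the followed partners and list genes, 40 values across the alternatives lost and 28 gained the call. Runx2 over both weeks was lost at a pseudocount of 1 (0.83) and without the scaling (0.87). Among the members, depth limited Twist2 and Prrx2 most, at 41 and 58 fragments in their lowest libraries.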
